A study of Bos taurus with 12 samples.

Results

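The subunits of the oxidative phosphorylation system were followed in the granulosa and theca cells of bovine ovarian follicles. Members were chosen by gene symbol in the platform table: symbols that begin with NDUFA, NDUFB, NDUFC, NDUFS, NDUFV, UQCR, ATP5 or COX4 to COX8, and SDHA, SDHB, SDHC and SDHD. The rule used no measured value. It found 84 genes of the 9155 with a named probe set, measured by 109 of the 24016 probe sets that were not controls. Of these, 101 probe sets, for 83 genes, were bright enough to be tested, and COX6A2 was the gene left out.

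Oxidative phosphorylation takes place in the inner mitochondrial membrane. Complexes I and II pass electrons from NADH and succinate to ubiquinone, complex III passes them to cytochrome c, and complex IV passes them to oxygen; complexes I, III and IV pump protons, and complex V, the ATP synthase, uses the proton gradient to make ATP. All members are encoded in the nucleus, and the subunits encoded in mitochondrial DNA were not analysed here. In the follicle, mitochondria also hold the first step of steroid synthesis, the conversion of cholesterol to pregnenolone.

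Granulosa cells form the inner epithelium of the follicle, and the theca is the vascular layer around it. Follicles of up to 5 mm were labelled small, those of more than 10 mm large and those between medium, so that both layers together made 6 groups with 2 arrays in each, 12 in total. All ovaries were from young, cycling, nonpregnant heifers in the follicular stage, with no treatment. Each RNA sample was a pool of cells of 20 to 40 follicles of the same size, whereas the series' design text speaks of ovaries of 6 to 10 animals. Layers were taken from the sample titles, because the description field gives theca for all 12 samples. Theca is a mixed tissue, and in such bulk samples fewer cells of a type and less RNA per cell cannot be told apart.

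Signals are linear array intensities, and each log2 change below is a difference of group means of log2(signal + 16) with the standard error (SE) of the limma fit, with 2 arrays per group. A fold of a dim probe set is understated on that scale. Calls were made where the p-value, adjusted by Benjamini-Hochberg over all 17236 probe sets tested, was under 0.05. Over all sizes, granulosa markers such as FSHR were higher in granulosa for 11 of 15 genes tested, and 6 of 8 theca markers were lower. Endothelial markers were lower in granulosa for 9 of 11 genes, pericyte and smooth muscle markers for 7 of 11, and fibroblast and stroma markers for 11 of 14, with 1 higher; of 16 immune markers 4 were higher and 2 lower. The summed signal of the 15 granulosa markers on theca arrays was 14390 to 18790 for small, 17380 to 28360 for medium and 27740 to 39680 for large follicles, and 34280 to 51530 in large granulosa. Aromatase, CYP19A1, a granulosa marker, read 1633.2 and 4279.2 in large theca and 3134.3 and 1820.5 in large granulosa, so that the layers overlapped. The sum was weighted to bright genes such as INHA, which read 3971.9 and 2929.9 in small and 7549.4 and 7721.7 in large theca. Some markers of the list fell instead. KRT18 read 292.5 and 221.4 in small and 137.6 and 56.7 in large theca, and HSD17B1 593 and 539.6, then 137.4 and 245.9. The part of these granulosa markers in the layer differences below was not tested. Single arrays stood apart on other measures: theca small replicate 1 had a 3′ to 5′ GAPDH ratio of 8.36 against 0.984 to 1.3 on the other arrays, while the actin ratio was highest, at 21, on granulosa large replicate 1, whose median signal of 48.7 compares with 33.6 to 39.1 elsewhere.

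Most layer differences of the subunits were small, and called members lay on both sides. Over all sizes 14 of the 101 tested member probe sets were called, 5 higher and 9 lower in granulosa. That is 13.9% of the members, beside a background of 24.8% of all tested probe sets (13.6% higher and 11.2% lower). Members were bright, at a median percentile of 96.6 among all probe sets by mean signal, and the background was not matched for brightness. The median change of the members was -0.00 against 0.10 for all tested probe sets, and their median absolute change was 0.23 against 0.37. For 88 of the 101 members, 87.1%, the whole 95% interval of the change lay within 1 log2 unit of 0, a 2-fold difference, as it did for 65.4% of all tested probe sets. The arrays of the layers did not overlap within any size for 6 members higher and 9 lower in granulosa, 14.9% of the members against 17.5% of all tested probe sets. A probe set was tested where at least 1 group mean passed a filter level of 5.27, that of a signal of 22.5. For 5 of the 101 members, and 15.2% of all tested probe sets, 1 layer had no group that passed it. Of the 14 calls 3 were of this kind, the brighter NDUFA4L2 and the dimmer COX6A1 and NDUFAB1 probe sets, all through granulosa alone, and the other 11 had groups over the level in both layers.

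**Figure D1:**
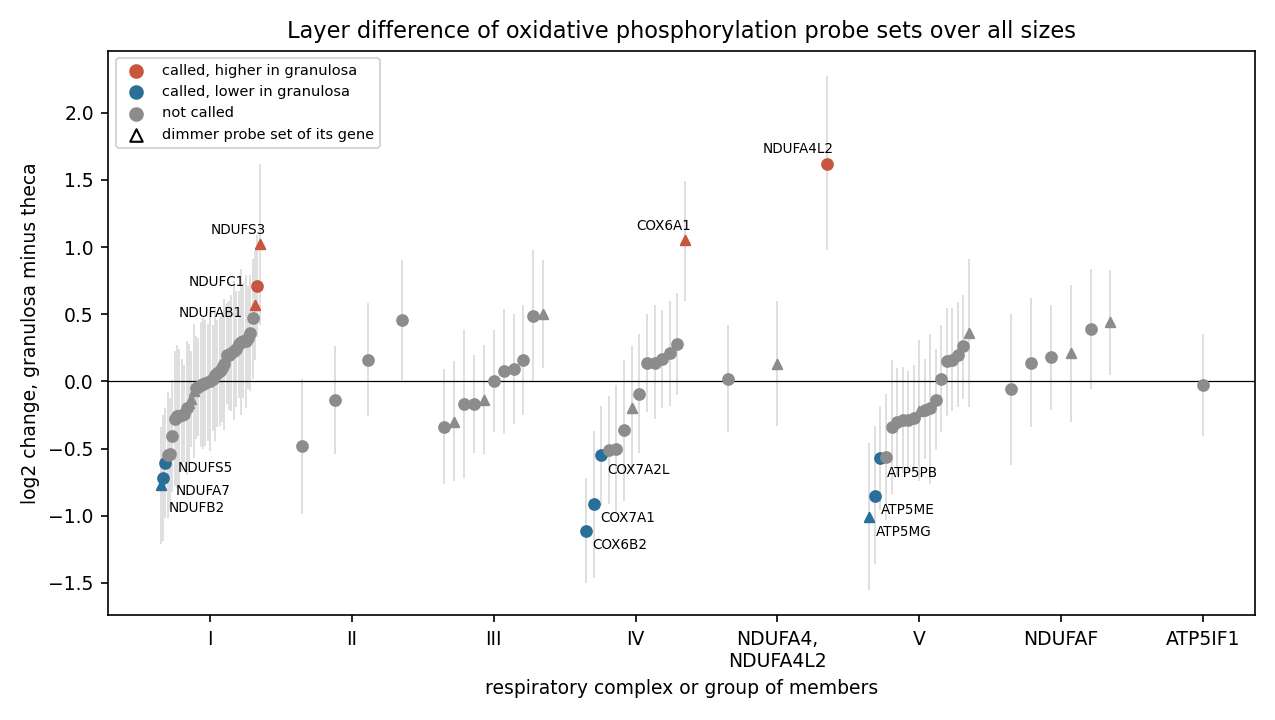
Log2 change of each tested member probe set, granulosa minus theca over all sizes, sorted within its complex, with the 95% interval of the limma fit as a grey bar. Circles are the brightest probe set of a gene and triangles a dimmer one; most points lie near 0, and the 14 coloured and named probe sets were called, 5 higher and 9 lower in granulosa.

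Complex by complex, the median changes of all tested probe sets were 0.00 for complex I (43 probe sets), 0.01 for complex II (4), 0.00 for complex III (11), -0.15 for complex IV (14) and -0.22 for complex V (19). Complex I had 3 probe sets called higher and 3 called lower, complex IV 1 and 3, complex V none and 3, and complexes II and III none in either direction. Of all tested probe sets 13.6% were called higher and 11.2% lower. Whether the complexes differed in their share of calls was not tested. The other 10 probe sets, for NDUFA4 and NDUFA4L2 (3), assembly factors (6) and an inhibitor (1), held 1 call, higher in granulosa. An unadjusted p under 0.05 was reached in limma by 1 of 4 complex II and 1 of 11 complex III probe sets. The latter was the dimmer UQCRC2 probe set, at 0.50 (limma adjusted p 0.0661), while the brightest gave 0.00. Counts at an unadjusted p are not calls, and here and below no share of all tested probe sets is given for them. By size, from small to large follicles, the medians were 0.16, -0.07 and -0.04 for complex I, -0.27, -0.20 and 0.06 for complex IV and -0.20, -0.27 and -0.15 for complex V, so that those of complexes I and IV changed sign between sizes and that of complex V did not. Over all sizes the complex V median stayed negative after quantile normalization, at -0.18, after centring each array on its median, at -0.29, and without both arrays that stand apart, at -0.15. The complex IV median changed sign, to 0.03, without theca small replicate 1 and was 0.07 without both arrays.

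The isoform pair NDUFA4 and NDUFA4L2 gave the largest fitted layer change among the members. NDUFA4 is a small subunit first assigned to complex I and later to complex IV, and NDUFA4L2 is its paralogue, known as a gene induced in low oxygen. The brighter NDUFA4L2 probe set read 43.7 and 57.4 in small, 37.8 and 112.8 in medium and 220.6 and 74 in large granulosa. In theca it read 30.2 and 5.8, then 10.8 and 23.7, then 14.8 and 7. Every granulosa array was thus above every theca array. The change was 1.62 ± 0.30 (SE), with an adjusted p of 0.00166 in limma. Its theca means of 4.99, 5.03 and 4.73 were all under the filter level, so that it was tested only because granulosa was high, and no fold is given against theca signals this dim.

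By size, the NDUFA4L2 difference was 1.06 ± 0.52 in small follicles, 1.35 ± 0.52 in medium ones and 2.45 ± 0.52 in large ones. Only the last was called (limma adjusted p 0.018), again against a theca mean under the filter level. On large granulosa replicate 1, the array that read 220.6, the haemoglobin gene HBB read 578.5 against 7.7 to 50.4 on the other 11 arrays. The summed immune markers were 636.1 to 677.7 on small, 800.6 to 1684 on medium and 6614 to 17800 on large granulosa arrays, with none at 0. Of these 16 genes 4 were under the filter level in small granulosa and none in medium or large. The part of HBB or of the immune markers in the NDUFA4L2 values was not tested. NDUFA4L2 was the 1 member called in large follicles, beside a background of 4.41% of all tested probe sets. That call rested on single arrays: it was 1.76 with an adjusted p of 0.154 without granulosa large replicate 1, 2.67 with 0.0749 without theca large replicate 1 and 2.24 with 0.137 without theca large replicate 2 in limma. The change with size differed between layers by 1.39 ± 0.74, which was not called (limma adjusted p 0.528). A second, separate NDUFA4L2 probe set, with 14.4 to 56.2 over the 12 arrays, changed by 0.13 ± 0.22 and overlapped between layers. NDUFA4 itself, with 2421.8 to 3906.9 over the 12 arrays, changed by 0.02 ± 0.19, with a 95% interval of -0.38 to 0.42.

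**Figure D2:**
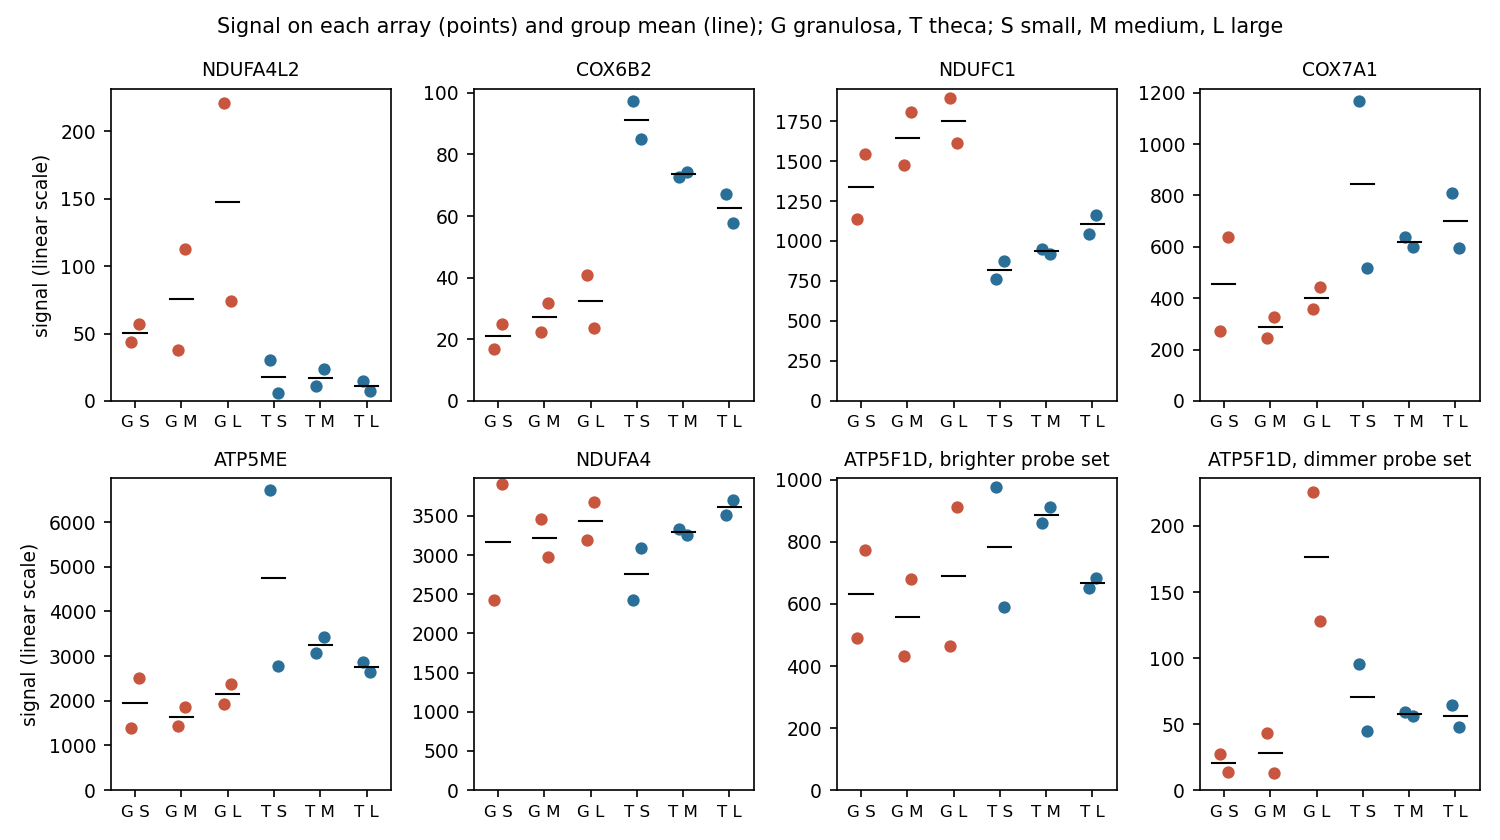
Signal of 7 members on each array on a linear axis from 0, by layer (G granulosa, T theca) and size (S small, M medium, L large), with a line at the mean of each group; ATP5F1D is shown for both of its probe sets. NDUFA4L2 and NDUFC1 read higher in granulosa in every size, COX6B2 and ATP5ME lower, NDUFA4 overlapping between the layers, and the dimmer ATP5F1D probe set high in large granulosa only.

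Complex IV, cytochrome c oxidase, held the members with tissue-specific isoforms. COX6B2, an isoform best known from testis of a subunit on the outer face of the enzyme, read 16.8 and 25.1 in small, 22.5 and 31.8 in medium and 41 and 23.6 in large granulosa. In theca it read 97.2 and 85, 72.8 and 74.3, and 67.2 and 57.8. All theca arrays were above all granulosa arrays, and the change was -1.11 ± 0.18, 2.16-fold, with an adjusted p of 0.000684 in limma. This call held in all 25 alternative settings.

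COX6B2 was also called within small follicles, at -1.54 ± 0.32 (limma adjusted p 0.00887), where 2 of 101 members were called beside a background of 9.14%. The COX6B2 mean of small granulosa was under the filter level. Without granulosa small replicate 1 its adjusted p in small follicles was 0.065 and without theca small replicate 1 it was 0.0554 in limma. The COX6B2 differences in medium and large follicles, -1.06 ± 0.32 and -0.72 ± 0.32, were not called, with adjusted p-values of 0.0667 and 0.211 in limma. COX6B1, the general isoform, was not analysed here.

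COX7A1, the heart and muscle isoform of a small subunit, was lower in granulosa by a change of -0.91 ± 0.25 (limma adjusted p 0.0184, 1.88-fold). It read 272.9 and 637.9, 244.1 and 327.7, and 358 and 444.7 in small, medium and large granulosa. In theca it read 1168.3 and 517.1, 639.7 and 598.8, and 807.7 and 596.5. Its layers overlapped in small follicles only. The call was lost without granulosa small replicate 1 (-0.71, adjusted p 0.0548), without theca large replicate 1 (-0.84, adjusted p 0.0566) and without both arrays that stand apart (-0.67, adjusted p 0.0751) in limma.

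COX7A2, the isoform of most other tissues, changed by 0.17 ± 0.17, and the related COX7A2L, which helps join complexes III and IV into supercomplexes, by -0.55 ± 0.17 (limma adjusted p 0.031). COX7A2L read 873.9 to 1152.7 on the granulosa arrays and 1255.7 to 1580.9 on the theca arrays, with no overlap. The sum of the pericyte and smooth muscle markers moved the same way as COX7A1. Over 11 genes it was 2156 to 6445 on granulosa arrays and 10970 to 21900 on theca arrays, with no gene at 0 in either layer. In each granulosa group 1 of these genes was under the filter level, and none was in theca. RGS5 changed by -3.60 ± 0.18 and ACTA2 by -3.53 ± 0.35, while others, such as MCAM and CSPG4, overlapped between the layers. With size the sum was 10970 to 13600 in small and 16380 to 21900 in large theca. Between small and large theca COX7A1 changed by -0.16 ± 0.44 and COX6B2 by -0.45 ± 0.32, neither called. The part of these markers in the COX7A1 and COX6B2 differences was not tested.

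Of the other complex IV isoform pairs none was called on its brightest probe set. COX6A1, the liver-type isoform, changed by 0.28 ± 0.18 on the brightest of its probe sets, and COX6A2, the muscle isoform, was under the filter, with signals of 2.8 to 19.7. COX8A changed by 0.14 ± 0.20 and COX8B, another muscle-type isoform, by -0.36 ± 0.24. The nuclear-encoded subunit COX4I1 read 2195.2 to 4197 in granulosa and 3622 to 6806.7 in theca, the highest on theca small replicate 1; it changed by -0.50 ± 0.22, which was not called (limma adjusted p 0.11). COX5A and COX5B, which like COX4I1 surround the core encoded in mitochondrial DNA, changed by 0.21 ± 0.18 and -0.09 ± 0.20. COX6C, another small subunit, changed by -0.51 ± 0.19 (limma adjusted p 0.0583).

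In complex V, the medians of the parts of the enzyme ran from 0.02 to -0.42. The catalytic F1 head had a median change of 0.02 over 5 genes, with -0.14 ± 0.17 for ATP5F1A, 0.20 ± 0.18 for ATP5F1B and 0.02 ± 0.19 for ATP5F1C, the alpha, beta and gamma subunits. The 3 genes of the c ring, the rotor in the membrane, gave -0.20 ± 0.26 (ATP5MC1), -0.30 ± 0.19 (ATP5MC2) and 0.26 ± 0.18 (ATP5MC3); none was called in limma, and 0 of 3 had an unadjusted p under 0.05. The peripheral stalk, which holds the head still, had a median of -0.28 over 4 genes. The 4 accessory subunits of the membrane part, ATP5ME, ATP5MF, ATP5MG and ATP5MJ, had a median of -0.42, and all 4 were negative, also after quantile normalization, after centring and without the arrays that stand apart. Of the brightest probe sets of these 4 genes, only that of ATP5ME was called.

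ATP5ME, the e subunit, read 1382.9 and 2519.2 in small, 1440.3 and 1852 in medium and 1936.3 and 2377.6 in large granulosa. In theca it read 6713.8 and 2781.2, 3061.7 and 3432.9, and 2866.7 and 2637. All theca arrays were above all granulosa arrays, with theca small replicate 1, the array of the high GAPDH ratio, far above the others. The change was -0.85 ± 0.24 (limma adjusted p 0.02), and -0.59 with an adjusted p of 0.0706 without both arrays that stand apart. The ATP5ME call was also lost without granulosa small replicate 1 (adjusted p 0.0598), theca medium replicate 2 (adjusted p 0.0607) or theca large replicate 1 (adjusted p 0.0525) in limma.

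ATP5PB, the b subunit of the stalk, was called at -0.57 ± 0.18 (limma adjusted p 0.0341), with 1535.2 to 2331.3 on granulosa and 2028.5 to 3319.6 on theca arrays. Its call was kept in 3 of the 12 fits without 1 array, those without granulosa small replicate 1, granulosa large replicate 1 or theca small replicate 1, and in the other 9 the adjusted p reached 0.117. ATP5IF1, the inhibitor of the ATP synthase and no structural subunit, changed by -0.03 ± 0.18.

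Complex I, the largest complex, had a median of 0.06 over the 6 nuclear core subunits analysed and 0.03 over its 30 accessory genes. Of the core, which carries the flavin and the iron-sulfur clusters, NDUFS1 changed by 0.47 ± 0.21, NDUFV1 by 0.29 ± 0.25, NDUFS3 by 0.13 ± 0.23, NDUFS7 by 0.00 ± 0.24, NDUFV2 by -0.05 ± 0.18 and NDUFS8 by -0.26 ± 0.23. None of these was called on its brightest probe set, and the lowest adjusted p, that of NDUFS1, was 0.116 in limma; NDUFS1 alone, 1 of the 6, had an unadjusted p under 0.05.

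Among the accessory subunits, NDUFC1 was higher in granulosa by 0.71 ± 0.18 (limma adjusted p 0.0102, 1.64-fold). It read 1134.8 and 1542.2 in small, 1474.9 and 1807.2 in medium and 1893.7 and 1612 in large granulosa. In theca it read 759.7 and 875.5, 949.8 and 920.6, and 1046.8 and 1164.9. The layers did not overlap within any size, although the lowest granulosa array, small replicate 1, lay under the highest theca array, large replicate 2. The call held in all 25 alternative settings. The related NDUFC2 changed by -0.25 ± 0.19.

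NDUFA7 and NDUFS5, also accessory subunits, were called lower, at -0.72 ± 0.22 (adjusted p 0.0283) and -0.61 ± 0.19 (adjusted p 0.031) in limma. NDUFS5 read 1189 to 1741.3 on granulosa and 1901.6 to 2964.4 on theca arrays, with no overlap, and NDUFA7 read 688 to 1856.7 and 1289.4 to 1981.1, which overlapped in small follicles. Both were near the threshold. NDUFS5 kept its call in 4 of the 12 fits without 1 array (without replicate 2 of small, medium or large granulosa or of small theca), NDUFA7 in these 4 and without theca small replicate 1, and COX7A2L without theca small replicate 1, theca small replicate 2, granulosa medium replicate 2 or granulosa large replicate 2. In the remaining fits the adjusted p of these 3 genes reached at most 0.0837, 0.078 and 0.0987 in limma.

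Complexes II and III had no called member. In complex II the flavoprotein subunit SDHA changed by 0.46 ± 0.21 (limma adjusted p 0.118) and the membrane anchor SDHD by -0.48 ± 0.24 (limma adjusted p 0.148), with -0.14 ± 0.19 for the other anchor, SDHC, and 0.16 ± 0.20 for the iron-sulfur subunit SDHB. SDHA read 986.2 to 1782.8 on granulosa arrays and 717.1 to 1156.4 on theca arrays. In complex III the core protein UQCRC1 changed by 0.49 ± 0.23 (limma adjusted p 0.129), the second core protein UQCRC2 by 0.00 ± 0.18 and the Rieske iron-sulfur protein UQCRFS1 by 0.16 ± 0.19. Their 95% intervals reached from -0.00 to 0.98, -0.38 to 0.38 and -0.25 to 0.57.

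Probe sets of the same gene were set side by side, and the difference between them was not tested. Among the 84 genes 22 had several probe sets, and 18 pairs of a brightest and another tested probe set could be compared for 17 genes. In 7 pairs the layer changes had opposite signs, in none were both called, and in 6 just 1 was. Of the 14 calls 9 were the brightest probe set of their gene, 2 higher and 7 lower in granulosa, and the other 5 were dimmer probe sets of genes whose brightest was not called. The dimmer NDUFB2 probe set was called at -0.77 ± 0.20 (limma adjusted p 0.0134) while the brighter gave 0.36 ± 0.20. Without theca medium replicate 2 the dimmer NDUFB2 probe set changed by -0.66, with an adjusted p of 0.0615 in limma.

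The dimmer COX6A1 probe set read 29.5 to 69.4 on granulosa arrays and 4.6 to 26.9 on theca arrays, with no overlap, and was called at 1.05 ± 0.21 (limma adjusted p 0.00269). Its theca means, up to 5.17, were all under the filter level, and it was tested only because granulosa was high. The dimmer COX6A1 probe set was the other member called in small follicles, at 1.38 ± 0.36 (limma adjusted p 0.0297), where it lost the call without granulosa small replicate 1 (adjusted p 0.14), granulosa small replicate 2 (adjusted p 0.0845) or theca small replicate 1 (adjusted p 0.185). The brightest COX6A1 probe set was 0.28 ± 0.18 over all sizes. The dimmer ATP5MG probe set was called at -1.01 ± 0.25 (limma adjusted p 0.0106) and the brighter gave -0.21 ± 0.17; the call of the dimmer held in all 24 alternative settings that tested it.

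The remaining calls on dimmer probe sets were NDUFS3 at 1.02 ± 0.28 (adjusted p 0.0164) and NDUFAB1, the acyl carrier protein, at 0.57 ± 0.19 (adjusted p 0.0426) in limma. The NDUFAB1 probe set passed the filter level only in small granulosa, at 5.72, with 4.97 and 5.09 in medium and large granulosa and 4.39 to 5.16 in theca. NDUFS3 lost its call without granulosa small replicate 1 (adjusted p 0.0521), theca medium replicate 2 (adjusted p 0.0647) or theca large replicate 2 (adjusted p 0.0561). NDUFAB1 kept it without granulosa medium replicate 1, granulosa large replicate 2, theca small replicate 2 or theca medium replicate 2, and in the other 8 fits without 1 array the adjusted p reached 0.14 in limma.

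**Figure D3:**
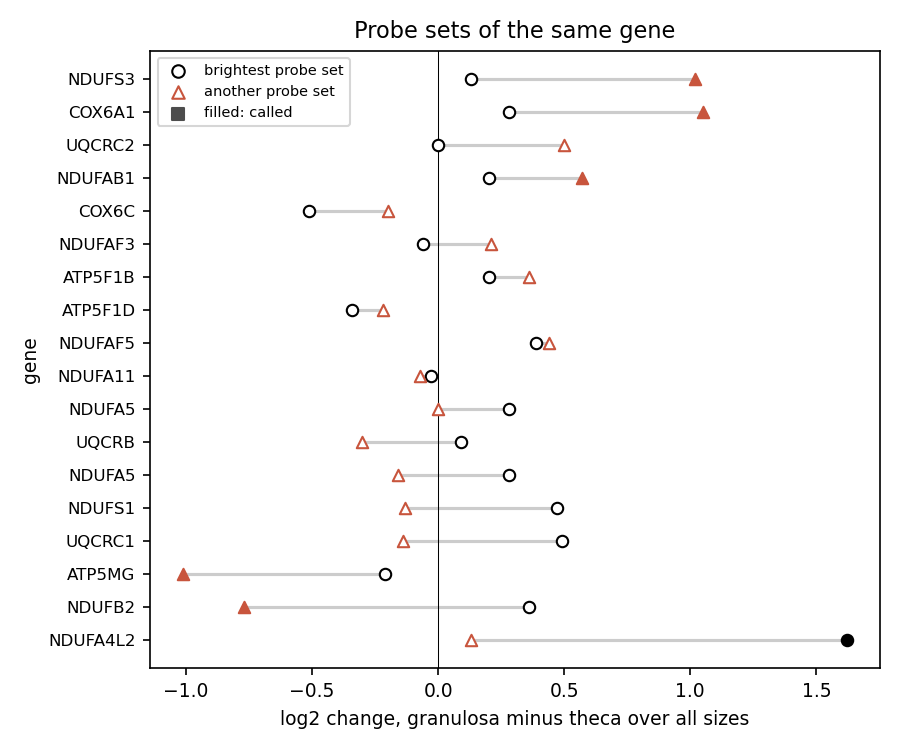
Log2 change, granulosa minus theca over all sizes, of the brightest probe set (circle) and another tested probe set (triangle) of the same gene, with filled marks for called probe sets. No line joins 2 filled marks, and 7 of the 18 lines cross 0.

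Few changes of members with follicle size passed the test. Between large and small granulosa 1 of 101 members was called, 0.99% against a background of 2.22% of all tested probe sets, and between large and medium granulosa the same 1, against 0.679%. Between medium and small granulosa none was called, against a background of 0.0058%, and 1 member had an unadjusted p under 0.05 in limma. In theca, with a variance shared with granulosa, none was called in limma between large and small, medium and small or large and medium follicles. The background of calls there was 0.0348%, 0.0116% and 0%. At an unadjusted p under 0.05 in limma, to which these backgrounds do not apply, there were 5, 3 and 0 members. Median member changes were 0.06 for large minus small in granulosa, over 58 positive and 43 negative probe sets, and 0.09 in theca. After centring each array the granulosa median was -0.12 with 25 positive probe sets, while the median of all tested probe sets moved from 0.04 to -0.14.

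The member called with size was a dimmer probe set of ATP5F1D, the delta subunit of the F1 head. It read 27.2 and 13.6 in small, 43 and 13.3 in medium and 225.5 and 127.7 in large granulosa, so that both large arrays were above all others of that layer. In theca it read 95.6 and 45, 58.9 and 55.9, and 64.6 and 48.1. The large minus small change was 2.38 ± 0.42 (limma adjusted p 0.0105) and the large minus medium change 2.16 ± 0.42 (limma adjusted p 0.0371). The mean of small granulosa, 5.16, was under the filter level. The brighter ATP5F1D probe set changed by 0.08 ± 0.40 between small and large granulosa, from 488.9 and 774.6 to 464.3 and 913.9.

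The first ATP5F1D call was lost without granulosa small replicate 1 (2.65, adjusted p 0.0832), granulosa small replicate 2 (2.11, adjusted p 0.111) or granulosa large replicate 1 (2.01, adjusted p 0.143) in limma. The second held in 4 of the 12 fits without 1 array (without granulosa medium replicate 1, granulosa large replicate 2 or either small theca array), and its adjusted p reached 0.459 in limma without granulosa medium replicate 2. The change of ATP5F1D with size differed between the layers by 2.58 ± 0.60 and was not called (limma adjusted p 0.141). In the same comparison of large and small granulosa all 16 immune markers tested were higher, with the summed signals given above for NDUFA4L2. Their part in the ATP5F1D difference was not tested.

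The difference between the layers in the large minus small change was called for none of the 101 members in limma, against a background of 0.0116%, and 1 member had an unadjusted p under 0.05. Its 95% interval lay within 1 log2 unit of 0 for 8 members, so that for most members a 2-fold difference in size response between the layers was within the interval. For the large minus small change itself, 59 of 101 intervals (58.4%) lay within that limit in granulosa and 42 (41.6%) in theca. Of all tested probe sets 28.2% and 30% did. The median member half-width was 0.74 in both layers, because each probe set had a variance shared by all groups. These counts therefore do not compare precision between the layers. The median absolute difference between replicates of members was 0.09 in medium and large theca, 0.46 in small theca and 0.37 to 0.55 in granulosa. Theca intervals and tests thus carried granulosa spread as well. Within medium follicles no member was called between the layers in limma, against a background of 6% of all tested probe sets called. At an unadjusted p under 0.05 in limma, to which that 6% does not apply, there were 10 members.

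The central subunits named for each complex showed the size of these changes. Between small and large granulosa they ran from -0.47 ± 0.33 for UQCRFS1 to 0.37 ± 0.36 for NDUFS1, and in theca from -0.37 ± 0.38 for COX4I1 to 0.61 ± 0.36 for SDHA. None of them had an adjusted p under 0.569 in limma. UQCRB, the ubiquinone-binding protein of complex III, gave 0.89 ± 0.33 in theca and 0.45 ± 0.33 in granulosa, and NDUFA4L2 gave -0.25 ± 0.52 in theca and 1.14 ± 0.52 in granulosa. Taking the brightest probe set of each of the 83 genes, 32 were positive and 11 negative in both layers. Of all 17236 probe sets tested, 4653 were positive and 4761 negative in both. The share of the same sign was 51.8% for the genes and 54.6% for all tested probe sets. These signs depend on the scaling. After centring each array, 25 member probe sets were positive in granulosa and 66 in theca, against 58 and 59 before.

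**Figure D4:**
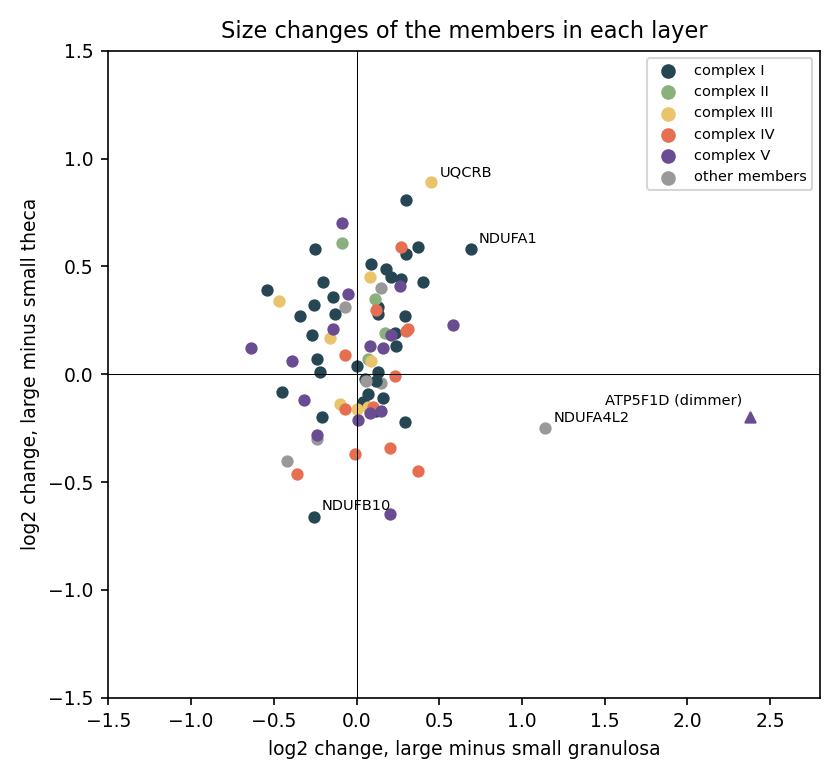
Log2 change from small to large follicles in granulosa (x axis) and theca (y axis) for the brightest probe set of each member gene, coloured by complex, and for the dimmer ATP5F1D probe set (triangle). Points lie around 0 in both layers, with 32 of 83 genes positive and 11 negative in both. Of all 17236 probe sets tested, 4653 were positive and 4761 negative in both. The dimmer ATP5F1D probe set, at 2.38 in granulosa, stands apart.

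On single arrays many members deviated in the same direction. The deviation of each gene's brightest probe set from its own mean over the 12 arrays had a median of -0.25 and 0.29 on the arrays of small granulosa, -0.16 and 0.06 on those of medium and -0.19 and 0.23 on those of large granulosa, replicate 1 first. In theca it was 0.08 and -0.21 for small, 0.06 and 0.04 for medium and 0.06 and 0.07 for large follicles. Only 8 of 83 genes were above their own mean on granulosa small replicate 1, and 64 on replicate 2.

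In granulosa, replicate 2 was above replicate 1 for 73 of 83 genes in small follicles, 66 in medium ones and 64 in large ones, or 88%, 79.5% and 77.1%, beside 47.6%, 48.2% and 42.4% of all tested probe sets. In theca the counts were 26, 34 and 47, or 31.3%, 41% and 56.6%, beside 51%, 47.4% and 47.2% of all tested probe sets. After quantile normalization the granulosa counts were 68, 64 and 58 and the theca counts 28, 37 and 39. The median absolute difference between replicates was 0.55 for all tested members against 0.42 for all tested probe sets in small granulosa. It was 0.37 against 0.40 in medium granulosa, 0.40 against 0.43 in large granulosa and 0.46 against 0.50 in small theca. In both medium and large theca it was 0.09 against 0.26. The 0.55 of small granulosa is a difference between 2 single arrays. The median absolute layer difference of 0.23 is one between means of several arrays, so that these measures are unlike.

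**Figure D5:**
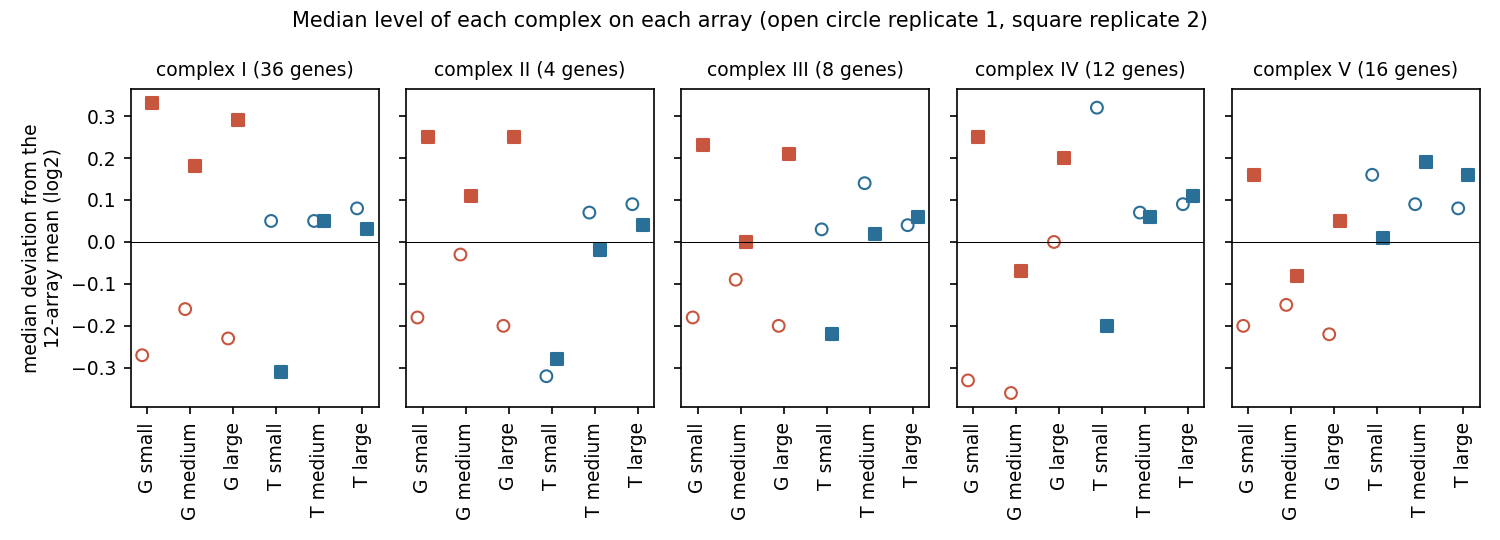
Median over the genes of each complex of the deviation of the brightest probe set from its mean over the 12 arrays (log2), on each array, with granulosa in red and theca in blue, open circles for replicate 1 and squares for replicate 2. In complexes I, II and III the replicates of small and of large granulosa lie on either side of the theca arrays of medium and large follicles, and in complex V theca medium and large arrays lie above at least 5 of the 6 granulosa arrays.

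The complexes shared this pattern. Complex I had medians of -0.27 and 0.33 in small, -0.16 and 0.18 in medium and -0.23 and 0.29 in large granulosa. Complex V had -0.20 and 0.16, -0.15 and -0.08, and -0.22 and 0.05 in granulosa, and 0.16 and 0.01, 0.09 and 0.19, and 0.08 and 0.16 in theca. The complex V arrays of the layers overlapped through replicate 2 of small and of large granulosa. Complex IV ranged from -0.36 on granulosa medium replicate 1 to 0.32 on theca small replicate 1.

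Other genes around the respiratory chain are given from lists that were chosen with earlier results of these data known. Their counts stand beside the same background of 24.8% of all tested probe sets called over all sizes. Cytochrome c1, CYC1, a complex III subunit outside the symbol rule, was called higher in granulosa, at 0.69 ± 0.22 (limma adjusted p 0.0355). Of 9 genes for electron carriers and for adenine nucleotide and phosphate transport none was called in limma, and 2 had an unadjusted p under 0.05. Of 23 assembly factors 2 were higher, with BCS1L at 0.59 ± 0.20 and COA1 at 0.54 ± 0.18, and 2 lower, with COA5 at -0.63 ± 0.20 and COX20 at -0.59 ± 0.18, or 17.4% called. The assembly factors among the members, NDUFAF3, NDUFAF5, NDUFAF6 and NDUFAF8, had no called probe set in limma and 1 of 6 with an unadjusted p under 0.05, with changes of -0.06 ± 0.26, 0.39 ± 0.21, 0.18 ± 0.18 and 0.14 ± 0.22.

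Of 20 genes of the tricarboxylic acid cycle and pyruvate dehydrogenase, 3 were higher in granulosa and 1 was lower, 20% beside the background of 24.8%. Pyruvate carboxylase, PC, changed by 1.22 ± 0.23 (limma adjusted p 0.00163), IDH3A by 0.84 ± 0.25 (limma adjusted p 0.0262) and PDK4, a kinase that switches off pyruvate dehydrogenase, by -1.85 ± 0.41 (limma adjusted p 0.0054). Of 8 tested regulators of mitochondrial biogenesis and transcription 2 were higher and 1 lower, 37.5% of a short list, with PPRC1, a coactivator, at 0.92 ± 0.18, TEFM at -0.87 ± 0.26 and POLG, the mitochondrial DNA polymerase, at 0.67 ± 0.20. Of 7 mitochondrial translation factors 2 were higher and 2 lower, 57.1% of a short list, led by MTIF2 at -0.74 ± 0.21 and GFM2 at 0.72 ± 0.18. Mitochondrial ribosomal proteins had 3 higher and 1 lower of 67, 5.97% against the 24.8%, with MRPL14 at 0.97 ± 0.24.

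The ferredoxin FDX1, which passes electrons to the steroid-making enzymes in mitochondria, was lower in granulosa by a change of -1.62 ± 0.18 (limma adjusted p 2.55e-05). The median change was 0.01 for the assembly factors, -0.10 for the tricarboxylic acid cycle list and 0.05 for the mitochondrial ribosomal proteins.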

How the data were processed

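RNA of granulosa and theca cells was measured on 12 Affymetrix bovine arrays of 1 colour. The deposited intensities were linear, with 1 value for each probe set on each array, and their 2% trimmed mean was 125.03 to 125.04 on each array, as computed here; how they were scaled, and with which software, is not given in the sources used here. Groups came from the titles. The labels call replicates biological and leave unsaid whether animals were shared between pools, so p-values measure the spread between pools. The 112 control probe sets were left out. A probe set was tested where a group mean of log2(signal + 16) exceeded that of a signal of 22.5, the 40th percentile. One limma model (version 3.58.1, R 4.3.3) of 6 group means over 12 arrays left 6 residual degrees of freedom, and its variance prior had 7.92 degrees of freedom and an SD of 0.376. It gave 11 contrasts with Benjamini-Hochberg adjustment within each. With 2 arrays against 2, an exact two-sided permutation test cannot give a p below 0.333. The number of arrays limits the precision. Within replicate pairs 0.325% to 0.641% of values were exactly equal, so neither array of a pair was a copy of the other. The fit was run on simulated data drawn independently for each probe set and array. That run held no deviation shared by many genes of an array, so it cannot speak to those seen here.

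All 109 member probe sets matched an Entrez identifier in the ARS-UCD2.0 gene table, used for names only. Members and gene lists were chosen with earlier results of these data known. Named were up to 3 called members per complex and direction by absolute change, central subunits of each complex, isoform pairs and genes whose probe sets disagreed, and up to 3 called genes of each pathway list; further genes, such as UQCRB, NDUFC2, COX6C, COA1, COX20, COX7A2L and the dimmer probe sets, were chosen after their values were seen. Alternatives were the offset, the filter, the normalization, the variance trend, replicate blocks, gene means and leaving out arrays. Figures were drawn with matplotlib 3.10.9 in Python 3.11.15.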

Additional observations from a re-analysis of the deposited data

How the results depend on the processing

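Over all sizes the count of called members, 14, became 9 with an offset of 1 and 23 with a replicate block of the number within each layer, and ran from 7 to 18 without 1 array; it was 7 without theca medium replicate 2 or theca large replicate 1, 8 without granulosa small replicate 1 or theca large replicate 2, and 9 without theca medium replicate 1. No named change turned its direction where it was called. Of the 14 calls 5 held in every alternative that tested them: NDUFA4L2, COX6B2, NDUFC1 and the dimmer probe sets of COX6A1 and ATP5MG. Among these, NDUFA4L2 and the dimmer COX6A1 probe set were tested only because granulosa was high. Their theca means were all under the filter level, so that their calls add no independent support. In small follicles 2 became 1 with an offset of 1, a filter at the 60th percentile, a replicate block of size and number, gene means or without both arrays that stand apart, 5 with the block within layers, and 0 to 4 without 1 array. In medium follicles 0 became 2 with the block within layers or without both arrays, 1 with gene means, and 0 to 0 without 1 array. In large follicles 1 became 0 with offsets of 1 or 64, gene means or without both arrays, 2 with the replicate block of the number, 3 with the block within layers, and 0 to 1 without 1 array. For large minus small granulosa 1 became 0 without both arrays and 0 to 1 without 1 array, and for large minus medium 0 with offsets of 1 or 64, no filter, gene means or without both arrays, and 0 to 1 without 1 array. The difference between layers in the large minus small change, 0, ran from 0 to 1 without 1 array.

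Labels do not say that numbers pair the samples, and same-numbered deviations of granulosa and theca correlated at -0.31, -0.18 and 0.14 from small to large follicles. Between sizes of the same layer they correlated at 0.40, 0.21 and 0.07 in granulosa and at 0.19, 0.27 and 0.14 in theca. The replicate block of the number gave 14 calls over all sizes and that of size and number 10. With theca numbers crossed in small and medium, the replicate block of size and number gave 18 calls over all sizes, and 4, 1 and 2 within small, medium and large ones. Both this crossing and the block within layers were chosen after seeing the data. The cause of these shifts was not tested. Centring each array moved the median of all tested probe sets from 0.12 to -0.10 for the layers in large follicles, from 0.04 to -0.16 for large minus medium granulosa and from 0.07 to -0.16 for the difference in size response; directions there are relative to that shift.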
